A study of Mus musculus with 6 samples.

Results

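TEC loci are entries of the GENCODE annotation, almost all with a single exon, that rest on polyadenylated cDNA or EST evidence and still await experimental proof that they are transcripts of their own. GENCODE M21, on the mouse build GRCm38, holds 3219 of them, and 3007 are among the 52550 gene identifiers of the deposited tables. The loci described here are the 1366 chosen by having 10 or more reads summed over the 6 libraries. Of these, 1000 lie wholly inside a protein-coding gene on the same strand (the host gene) and 366 do not. The other 1641 loci fell below the minimum, and 1057 of them had 0 reads. At the edge of the rule, 32 loci had exactly 10 reads, among them Gm26696 and Gm37194, and 36 had 9 reads, among them 9530056K15Rik and Gm37541. The minimum used the sum of reads over both genotypes and not their difference. TEC loci were, however, picked with their higher level in the knockout already known from these libraries, so that difference is given as a description.

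The libraries came from cortex of C57BL6/J mice at postnatal day 2, 1 hemisphere each, in a study of large neutral amino acids in newborn neurons. Slc7a5 encodes LAT1, the carrier of large neutral amino acids. The 3 control libraries, A, B and C, are from Slc7a5fl/fl; Emx1Cre- mice, and the 3 knockout libraries, also lettered A, B and C, from Slc7a5fl/fl; Emx1Cre+ mice. Both groups thus carry the floxed alleles, Cre is present in the knockout alone, and presence of Cre cannot be told apart from loss of Slc7a5. Emx1-Cre acts in the dorsal forebrain lineage, which gives excitatory neurons and most glia of the cortex, while cortical interneurons, microglia and vessel cells arise elsewhere and keep the gene. RNA was taken from whole tissue, so fewer cells of a type and less RNA per cell cannot be told apart.

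As background, introns are transcribed with the rest of a gene and are normally removed and degraded in the nucleus. Genes for synaptic and axonal proteins of neurons are among the longest in the genome, and most of their length is intron. Libraries made by polyA selection still hold some intronic RNA, from transcripts not yet spliced, from transcripts that end inside an intron, or from stretches of A within an intron that bind oligo-dT. A single-exon locus inside an intron of the same strand receives all such reads that fall within it, and counts on the locus do not separate these sources from an independent transcript.

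The 3 sequences printed here come from loci among those with the smallest p in the comparison of genotypes with the library letter as a block, 2 inside introns and 1 inside a noncoding gene. Each is a 120-base window of the GENCODE M21 transcript around the longest run of A in the locus, read 5′ to 3′ on the strand of the locus, with that run in capitals. A runs are shown because the libraries were polyA-selected; the tables give counts per locus and no read positions, so where in a locus its reads lie is not known.
Gm42440 (ENSMUSG00000105720), intron of Auts2, chr5:131932507-131932626, minus strand: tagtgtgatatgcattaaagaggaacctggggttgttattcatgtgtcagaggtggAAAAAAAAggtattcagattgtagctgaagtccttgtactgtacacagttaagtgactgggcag
Gm44799 (ENSMUSG00000109095), intron of Fam155a, chr8:9659202-9659321, minus strand: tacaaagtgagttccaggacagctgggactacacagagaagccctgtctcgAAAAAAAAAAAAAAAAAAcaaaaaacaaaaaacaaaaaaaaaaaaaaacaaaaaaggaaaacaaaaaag
Gm42692 (ENSMUSG00000104901), inside the noncoding gene Sox2ot, chr3:34643853-34643972, plus strand: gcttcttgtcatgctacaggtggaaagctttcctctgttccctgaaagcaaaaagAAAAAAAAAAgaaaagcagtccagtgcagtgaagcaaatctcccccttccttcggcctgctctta

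The runs are 8, 18 and 10 bases long. In Gm44799 the run starts at base 180 of 1202, and 63.3% of the window is A. Across the set, 363 of 1366 loci (26.6%) held a run of 10 or more A on their own strand, against 183 of the 1641 TEC loci below 10 reads (11.2%). The loci with reads were longer, with a median of 2308 bases against 1635, but the shares differed in the same direction within 3 bins of length. They were 19.6% against 5.24% in the bin of short loci, 24.3% against 14.6% in the middle bin and 32.0% against 16.9% in the bin of long loci. Within the bin of short loci, those with reads were still longer, with a median of 1022 bases against 749.5. The median GC content was 40.8% in the loci with reads against 43.5% in the others. The hexamer AATAAA, searched on the strand of the locus only, occurred in 80.6% of the loci with reads and 65.2% of the others. By bin of length the shares were 61.1% against 46.5% (short), 78.9% against 75.5% (middle) and 91.9% against 84.1% (long). Such a match describes the letters of the window and does not mark a priming or cleavage site. The run length did not order the difference between genotypes, since the median log2 change was 0.25 for the 295 tested loci with runs of 3 to 6, 0.22 for the 284 with runs of 7 to 9 and 0.27 for the 255 with runs of 10 or more.

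Depth was even, at 8249436 to 10372582 reads on genes per library. Slc7a5 stood at 20.2, 40.7 and 26.1 CPM (reads scaled to library size, as described with the processing) in controls A to C and at 15.6, 9.37 and 11.4 in knockouts A to C, with no overlap. Its log2 change of -1.25 ± 0.28 (SE) had an adjusted p of 0.400 by edgeR's quasi-likelihood test. The 10 markers of newborn cortex were all detected, with a summed level of 3266 to 3599 CPM in controls and 3261 to 3498 in knockouts; 4 of the 10 were above 0, and 3 were called lower with the library letter as a block. Mapped reads that fell in no exon of the annotation, on the strand counted, are termed reads outside exons; they made up 26.5, 22.5 and 23.0% of mapped reads in controls A to C and 27.4, 27.9 and 27.8% in knockouts A to C. Control A lay near the knockouts, and controls B and C lay well below. The means were 24.0% ± 2.17 (SD, n = 3) and 27.7% ± 0.272 (SD, n = 3), a difference of 3.71 percentage points with a two-sided exact permutation p of 0.1, the smallest that 20 assignments of 3 against 3 libraries allow. Unmapped reads, at 26.1 to 27.7% of mapped and unmapped reads together, did not separate the genotypes. Multi-mapping reads are left out of the totals behind both shares.

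The loci carried 351203 reads in all, from 10 to 12462 each with a median of 86. Reads were concentrated, since the 10 loci with most reads held 14.0% of them and the top 100 held 49.0%. All but 1 of the 1366 loci have a single exon. Of the 1000 loci inside a host, 973 lie wholly within 1 intron, 168 of them in the first intron, and the median length of the intron is 38.5 kb. The remaining 27 overlap an exon of the host. Inside hosts, 733 loci had no read on the opposite strand in any library. Per kilobase, the median locus carried 15.3% of the reads on the exons of its host, with quartiles at 5.53 and 45.5%, and 112 of 1000 carried more reads per kilobase than those exons. The highest ratio among the loci described below belonged to Gm48259, with 4368% of the reads per kilobase of Adarb2 exons. The 366 loci outside a host comprise 117 antisense to a protein-coding gene, 246 between protein-coding genes and 3 that overlap a gene only in part. Of the 366, 59 lie inside a noncoding gene and 96 lie within 10 kb downstream of a protein-coding gene on the same strand.

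Summed over all 1366 loci, TEC reads stood at 6312, 4796 and 5230 CPM in controls A to C and at 6706, 6339 and 6750 CPM in knockouts A to C. Every knockout library was above every control library, with control A close to knockout B. The means were 5446 ± 781 and 6598 ± 226 CPM (SD, n = 3), a ratio of 1.21 and a log2 ratio of 0.28. Between libraries of the same letter the log2 ratio was 0.09 for A, 0.40 for B and 0.37 for C. Controls stood in the same order, below all knockouts, for TEC reads as for reads outside exons. Among knockouts, B was lowest in TEC reads and highest in reads outside exons. The same-letter differences in reads outside exons were 0.921, 5.44 and 4.78 percentage points for A, B and C. Per 1000 reads outside exons, the loci held 17.1, 16.0 and 17.2 reads in controls A to C and 17.4, 16.8 and 17.6 in knockouts A to C, and those values overlap between genotypes. With library size set to reads outside exons in place of reads on genes, the log2 ratio of summed TEC reads was 0.04. The part of reads outside exons in the higher TEC level was not tested beyond this scaling.

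**Figure D1:**
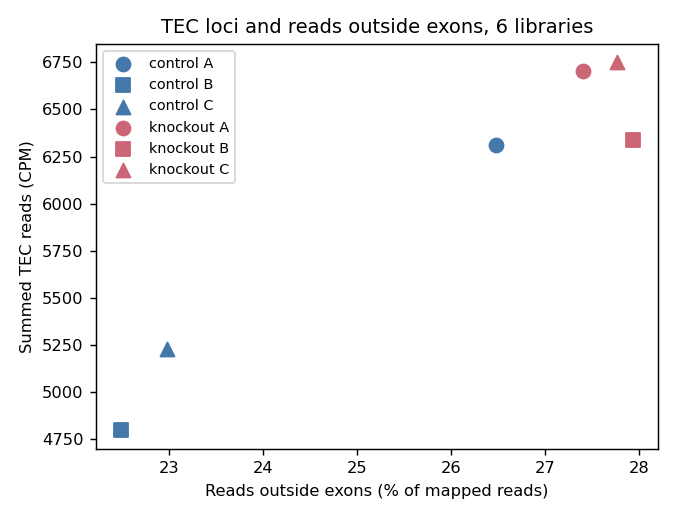
Each point is 1 library, with reads outside exons as a percent of mapped reads on the horizontal axis and reads summed over 1366 TEC loci, in CPM, on the vertical axis; neither axis starts at 0. Controls B and C lie at the lower left (22.5 and 23.0%, 4796 and 5230 CPM), and control A (26.5%, 6312 CPM) lies beside the 3 knockouts (27.4 to 27.9%, 6339 to 6750 CPM).

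The 1000 loci inside hosts made up most of that sum, with 4591, 3468 and 3844 CPM in controls A to C and 4890, 4650 and 5067 CPM in the knockouts, a log2 ratio of 0.30 with no overlap. The 366 loci outside hosts stood at 1721, 1328 and 1385 CPM against 1816, 1689 and 1683 CPM, a log2 ratio of 0.23, and control A was above knockouts B and C. Antisense loci had a log2 ratio of 0.22 and intergenic loci 0.23. Loci inside a noncoding gene had a log2 ratio of 0.34, and those within 10 kb downstream of a protein-coding gene had 0.08. These downstream loci stood at 445, 356 and 400 CPM in controls A to C and at 439, 406 and 429 CPM in the knockouts, so the genotypes overlapped. The 562 host genes, counted over their exons, stood at 55762, 54983 and 53981 CPM in the controls and 55435, 53174 and 53861 CPM in the knockouts, a log2 ratio of -0.02.

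**Figure D2:**
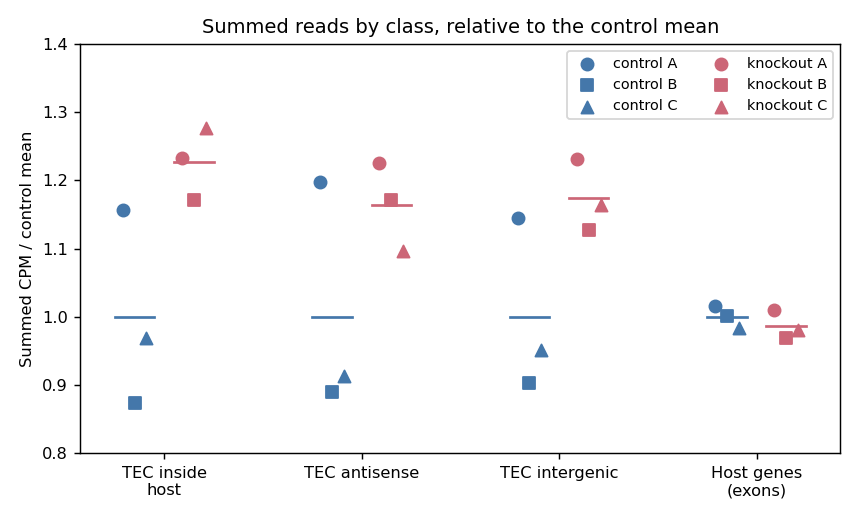
Reads summed over each class in each of the 6 libraries, divided by the mean of the 3 controls; horizontal bars are group means, and the axis runs from 0.8 to 1.4. TEC loci inside hosts had a knockout mean 1.23 times that of the controls, antisense loci 1.16 and intergenic loci 1.17, while exon reads of the host genes were at 0.986.

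In the test across all genes, 834 of the 1366 loci passed the filter on low counts, 655 inside and 179 outside hosts, and 532 were not tested. No locus passed an adjusted p of 0.05 in edgeR's quasi-likelihood test on genotype alone (0 of 834), against 5 of 14913 genes (0.0335%). DESeq2 on genotype alone also called 0, among the 360 loci to which it gave an adjusted p, against 0.23% of all genes. Without the filter on low counts, edgeR called 8 loci, against 0.277% of all genes. At an unadjusted p under 0.05 there were 117 loci in edgeR, 115 of them higher in the knockout, against 7% of all tested genes in either direction and 3.19% in the higher direction. Of the 117 loci, 106 lay inside hosts. The median log2 change of the tested loci was 0.26, or 0.28 inside and 0.18 outside hosts, against 0.00113 for all tested genes, and 674 of 834 (80.8%) were above 0 against 50.2% of all genes. With libraries scaled to reads outside exons, the median of all genes moved to -0.24 and that of the tested loci to 0.02, with 433 of 834 (51.9%) above 0. Outside hosts it moved below 0, to -0.06. The filter let in 105 loci that reached 1.01 CPM in every knockout but not in every control library, and 28 in the reverse case, so the tested loci are not a neutral sample of the set. Over all 1366 loci without the filter, the median log2 change was 0.27 and 1026 were above 0 (75.1%), against 51.7% of genes with 10 or more reads. Every knockout library was above every control library at 201 of the 1366 loci (14.7%), against 6.13% of all genes with 10 or more reads. The reverse held at 17 loci (1.24%), against 5.67%. Inside hosts the first share was 17.1% and outside hosts 8.20%.

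**Figure D3:**
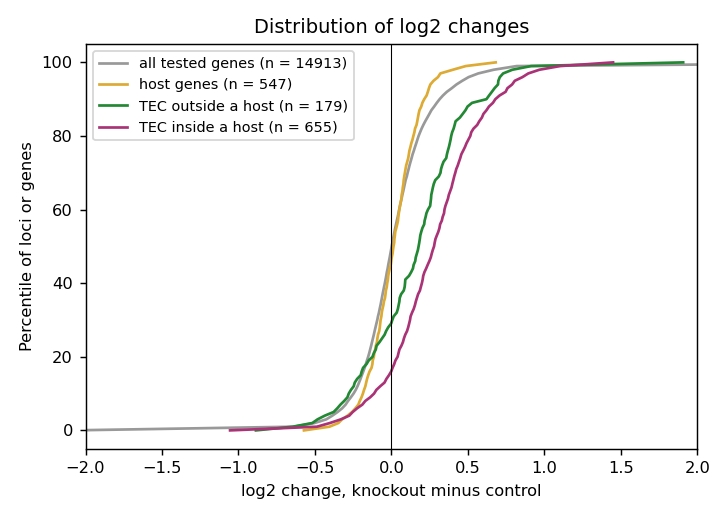
Percentile (vertical axis) of the log2 change between knockout and control (horizontal axis, shown from -2 to 2) for all 14913 tested genes, 547 tested host genes, 179 TEC loci outside and 655 inside hosts. The curve of host genes crosses the middle percentile near 0.01, as that of all genes does near 0, while the TEC curves cross it at 0.18 and 0.28.

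The higher level was spread over many loci. By mean CPM, 146 of 209 tested loci among those with fewest reads (0.715 to 1.77 CPM) were above 0 (69.9%, median 0.21) and 190 of 209 among those with most (7.13 to 213 CPM) were (90.9%, median 0.29). Along the host, the medians of 5 equal stretches from start to end lay between 0.25 and 0.31. Split into 4 equal bins by length of the intron, by span of the host or by GC content, the medians of all bins lay between 0.20 and 0.32. Between libraries of the same letter, the median log2 difference over tested loci was 0.06 for A, 0.31 for B and 0.33 for C, and 56.6, 75.4 and 78.9% of the loci were above 0. The A libraries thus differed least, as they did in reads outside exons.

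The letters pair the libraries (the check is given with the processing), and with the letter as a block edgeR called 17 of the 834 loci, all higher in the knockout, against 126 of 14913 genes (0.845%). Among all genes 49 were higher (0.329%) and 77 lower (0.516%). Of the 17 loci, 14 lie inside hosts and 3 outside. On simulated counts, the share of false calls with the block exceeded the nominal level, and on genotype alone it stayed below, so calls made with the block alone are less certain than their adjusted p. DESeq2 with the same block called 2, Gm48259 and Gm42440, against 0.154% of all genes. With libraries scaled to reads outside exons, all 17 remained above 0, from 0.20 to 1.22. The 17 were picked by their rise in these same libraries, so their sign under that scaling is a description only. That scaling called 0 loci on genotype alone (0.443% of all genes) and, with the block, 4 of the 17, Gm48259, Gm44799, Gm37897 and Gm42692 (6.77% of all genes). Each adjusted p below is from edgeR with the block unless stated otherwise, as is the log2 change of a single TEC locus given with its SE. Ranges over loci, and changes of host and other genes, are on genotype alone.

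Gm48259 (ENSMUSG00000113810) lies in the first intron of Adarb2, a relative of the RNA-editing enzymes that marks a class of cortical interneurons. It stood at 49.8, 27.2 and 38.7 CPM in controls A to C and at 66.7, 56.9 and 62.5 CPM in knockouts A to C. All knockouts were above all controls, and control B was lowest. It rose by a log2 change of 0.71 ± 0.11 (SE) with an adjusted p of 0.000249, while on genotype alone the adjusted p was 0.409. Adarb2 exons stood at 22.2, 16.7 and 17.9 CPM against 27.5, 26.2 and 22.0 CPM, a log2 change of 0.41 ± 0.15 on genotype alone with an adjusted p of 0.141 with the block. Of 10 markers of interneurons, 9 were above 0 with a median log2 change of 0.24, and 1 passed with the block. Their summed level was 1510 to 1627 CPM in controls and 1563 to 1921 CPM in knockouts. Their part in the values of Gm48259 was not tested.

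Auts2, a nuclear regulator of transcription in developing neurons, holds 20 TEC loci in 6 of its introns, and all 16 that were tested were above 0, from 0.36 to 0.84. Summed, they stood at 202, 161 and 205 CPM in controls A to C and at 239, 248 and 336 CPM in knockouts A to C, a log2 ratio of 0.54 with no overlap. Knockout C was the highest. The exons of Auts2 stood at 518, 561 and 483 CPM against 609, 560 and 568 CPM, and their log2 change of 0.15 ± 0.10 did not pass (adjusted p of 0.551). With the block 5 loci passed. Gm42440 stood at 19.8, 15.9 and 27.9 CPM in the controls and 27.5, 28.4 and 49.1 CPM in the knockouts, so knockout A was just below control C. It rose by 0.71 ± 0.13 (adjusted p of 0.00115), and both libraries of letter C were high. Gm42992, the locus of Auts2 with most reads, stood at 56.3, 42.9 and 60.1 CPM against 63.5, 66.5 and 88.0 CPM, with no overlap, and rose by 0.45 ± 0.10 (adjusted p of 0.0227). Gm42991 (0.47 ± 0.12), C230071H17Rik (0.70 ± 0.17) and Gm42443 (0.78 ± 0.19) were the others, and only Gm42443 had no overlap among these 3. Loci of 1 host lie in the same transcription unit and are not counted as independent replicates.

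Fam155a, an accessory subunit of a sodium leak channel, holds 10 TEC loci, and all 9 tested were above 0. Summed, they stood at 88.3, 56.7 and 70.0 CPM in controls A to C and at 101, 105 and 105 CPM in the knockouts, a log2 ratio of 0.54 with no overlap, while the exons of Fam155a had a log2 change of 0.08 ± 0.11. Gm44799 stood at 13.8, 7.94 and 10.3 CPM against 19.3, 18.2 and 17.97 CPM and rose by 0.81 ± 0.16 (adjusted p of 0.00392). Gm44798, in the same first intron, stood at 3.72, 2.60 and 4.07 CPM against 8.34, 5.47 and 6.23 CPM and rose by 0.94 ± 0.24 (adjusted p of 0.0482). Neither overlapped between genotypes.

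The other loci inside hosts that passed with the block were each the 1 locus of its host to do so. Gm37897, in Fstl5, a secreted follistatin-like protein, had the largest log2 change of the 17, from 1.61, 0.744 and 1.53 CPM in controls A to C to 4.22, 3.62 and 3.01 CPM in knockouts A to C. It rose by 1.47 ± 0.34 (adjusted p of 0.0246) on 146 reads in all, while Fstl5 exons had a log2 change of 0.04 ± 0.11. C130089K02Rik, in the Notch coactivator Maml3, stood at 12.4, 6.70 and 11.1 CPM against 16.6, 14.9 and 17.1 CPM (0.70 ± 0.16, adjusted p of 0.0227), with Maml3 exons at 0.03 ± 0.12. 6720464F23Rik, in Rabgap1l, a regulator of Rab GTPases, stood at 5.84, 5.09 and 6.21 CPM against 10.7, 8.72 and 9.97 CPM (0.78 ± 0.20, adjusted p of 0.0413), with the host at -0.10 ± 0.10. Gm20371, in the synaptic adhesion gene Lrrtm4, carried 780% of the reads per kilobase of the host exons. It stood at 38.1, 30.02 and 34.4 CPM against 51.5, 42.3 and 45.2 CPM (0.44 ± 0.11, adjusted p of 0.0369), with the host at -0.08 ± 0.15. At these 4 loci every knockout was above every control. Gm38380, in the nuclear receptor coactivator Ncoa2, passed with an overlap, since knockout B (12.1 CPM) was just below control A (12.4 CPM). Gm38042, in the homeobox gene Zfhx3, passed in a host whose exons were also higher, at 180, 132 and 198 CPM in the controls and 215, 257 and 230 CPM in the knockouts (0.46 ± 0.14, adjusted p of 0.0786).

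Not every locus with many reads was higher. 2900022M07Rik, in the adhesion receptor gene Adgrb3, had the most reads of the loci inside hosts. It stood at 73.3, 57.8 and 70.6 CPM in controls A to C and at 71.3, 67.3 and 71.7 CPM in the knockouts (0.07 ± 0.10, adjusted p of 0.865). B230206I08Rik, at the far end of the postsynaptic scaffold gene Dlg2, stood at 48.8, 42.5 and 40.2 CPM against 48.7, 38.3 and 46.1 CPM (0.02 ± 0.11, adjusted p of 0.978). In both, the genotypes overlapped. In Ctnna2, which encodes a catenin of neurons, 6330415B21Rik stood at 52.8, 42.8 and 49.7 CPM against 59.6, 59.1 and 72.4 CPM and just missed the threshold (0.39 ± 0.10, adjusted p of 0.0522), as did Gm44286 (0.76 ± 0.20, adjusted p of 0.0515).

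Host genes were long and well expressed, but they were chosen by holding a TEC locus that met the minimum of reads. Long and well expressed genes can meet that rule more readily, so their span and level are given as a description. The 547 tested hosts had a median span of 115 kb and 56.9% were over 100 kb, against 24.9 kb and 14.5% for 12410 other tested protein-coding genes, and their median level was 48.2 CPM against 25.3 CPM. None passed on genotype alone (0 of 547 by edgeR and 0 by DESeq2), against 0.0335% and 0.23% of all genes. In edgeR, 27 hosts had an unadjusted p under 0.05, 7 of them higher. Over all tested genes the shares were 7% in either direction and 3.19% in the higher direction. With the block 1 host passed, against 0.845% of all genes. That host, Lhfp, fell from 30.6, 31.3 and 36.5 CPM to 21.2, 22.3 and 25.6 CPM (log2 change of -0.51 ± 0.13 on genotype alone, adjusted p of 0.0270 with the block). Its 2 TEC loci were at 0.03 and 0.18. The median log2 change of hosts was 0.01 with 293 of 547 above 0, and 1805 other protein-coding genes over 100 kb also had a median of 0.01.

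For the 652 loci with a tested host, the median difference between the log2 change of the locus and that of its host was 0.28, and 530 loci (81.3%) lay above their host. Both changes come from the same fit, so library scaling nearly cancels in this difference by construction. With libraries scaled to reads outside exons it was 0.29, with medians of 0.04 for tested loci inside hosts and -0.23 for tested hosts. The median of log2 locus CPM minus log2 host CPM was -3.98, -4.24 and -4.15 in controls A to C and -3.87, -3.90 and -3.79 in knockouts A to C, so every knockout was above every control. Across loci, which share libraries and in part hosts, the changes of locus and host had a Pearson correlation of 0.127 and a Spearman correlation of 0.124, given as a description.

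**Figure D4:**
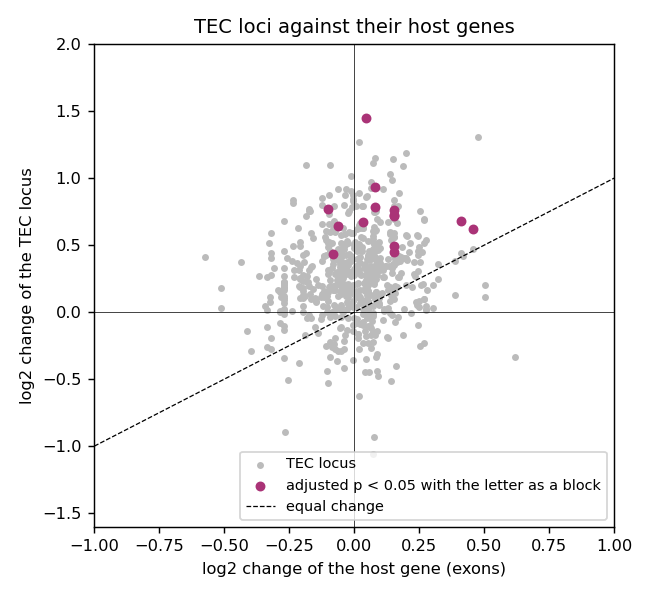
Each of 652 points is a tested TEC locus, with the log2 change of its host gene's exons on the horizontal and its own on the vertical axis; the dashed line marks equal change, and larger points passed with the letter as a block. Of the points, 530 lie above the line. So do all 14 larger ones, which were picked by their change in these same libraries.

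Members were unevenly spread over the 562 hosts: 391 hosts held 1 locus, and 31 hosts with 5 or more held 275 loci. In 30 of these 31 hosts the summed TEC reads were higher in the knockout, and in 15 every knockout library was above every control library. The log2 ratios ran from -0.02 for Pclo to 0.74 for Tcf12 with a median of 0.35. The exons of the same 31 hosts ran from -0.32 for Gpm6a to 0.27 for Kctd8 with a median of -0.00348, and in 30 of 31 the summed loci lay above the host.

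Kcnip4, a partner of A-type potassium channels, held the most loci, 24. They stood at 242, 175 and 189 CPM in controls A to C and at 208, 221 and 213 CPM in the knockouts, a log2 ratio of 0.08 with overlap, while its exons were at -0.27 ± 0.16. Dlg2 had 20 loci at 277, 224 and 216 CPM against 286, 276 and 278 CPM (log2 ratio of 0.23), with control A just above knockout B. Adgrb3 had 19 loci with a log2 ratio of 0.14 and overlapping genotypes. Cntnap2, an axonal cell adhesion gene, had 18 loci at 88.3, 61.8 and 72.0 CPM against 99.8, 90.3 and 88.6 CPM, a log2 ratio of 0.33 with no overlap. Tested loci with a higher log2 change than the exons of their host numbered 16 of 16 in Auts2, 21 of 22 in Kcnip4, 17 of 18 in Dlg2 and 15 of 18 in Adgrb3, and those of Auts2 lay along most of the gene.

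**Figure D5:**
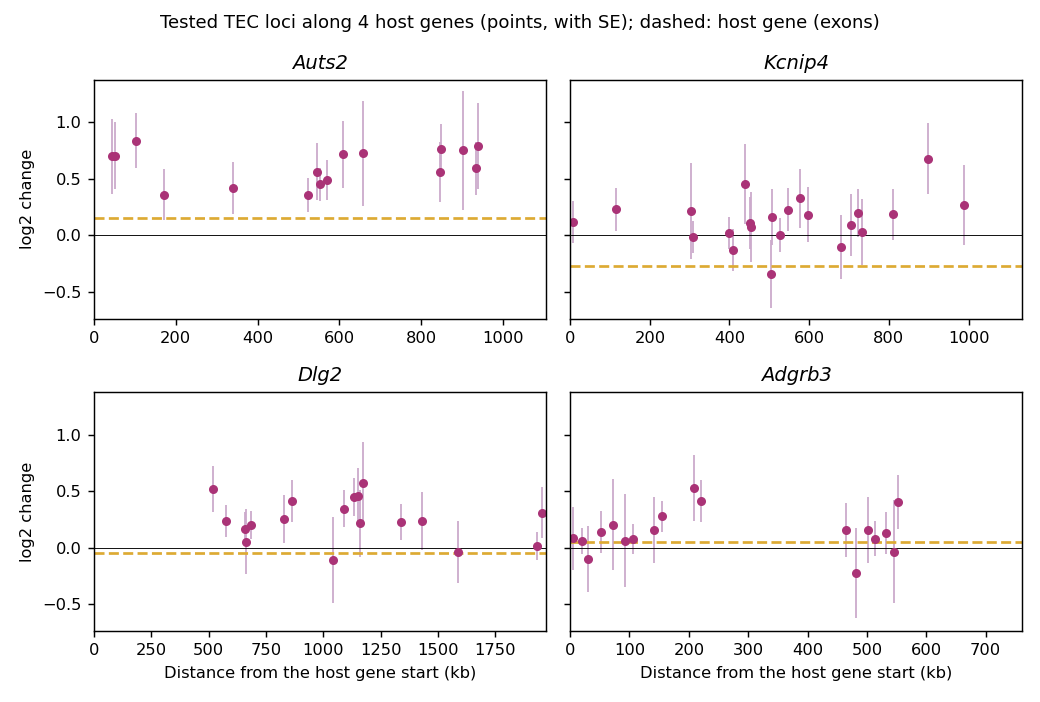
Tested TEC loci of Auts2 (16), Kcnip4 (22), Dlg2 (18) and Adgrb3 (18) by distance from the start of the host gene in kb (horizontal axis), with their log2 change on genotype alone and its SE (vertical axis); the dashed line is the log2 change of the host's exons. All 16 points of Auts2 lie above its exons, at 0.36 to 0.84.

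Outside hosts, some of the loci with many reads lie inside noncoding genes or antisense to Ube3a. Loci inside a noncoding gene held 28169 of the 93457 reads on loci outside hosts. Snhg14 is the long paternal transcript of the Prader-Willi and Angelman region, and its far part runs antisense to Ube3a. A230103L15Rik, inside Snhg14, stood at 158, 83.9 and 93.2 CPM in controls A to C and at 166, 135 and 147 CPM in the knockouts, so control A overlapped the knockouts. It rose by 0.47 ± 0.11 (adjusted p of 0.0219), and on genotype alone the adjusted p was 0.796. Antisense to Ube3a lie 4 further loci, and all 4 were tested and were above 0, from 0.27 to 0.49. Summed, they stood at 338, 220 and 225 CPM against 342, 342 and 289 CPM, a log2 ratio of 0.32 with control A above knockout C. 9330162G02Rik, the locus with the most reads of all, 12462, is one of them, at 245, 163 and 171 CPM against 247, 238 and 215 CPM (0.29 ± 0.10, adjusted p of 0.161). The annotated exons of Snhg14 were at 0.08 ± 0.10 and those of Ube3a at 0.11 ± 0.10, neither of which passed.

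Sox2ot and Mir99ahg gave the other 2 loci that passed outside hosts. Gm42692, inside Sox2ot, a noncoding gene that overlaps Sox2, stood at 8.15, 6.33 and 8.86 CPM against 14.3, 11.1 and 16.8 CPM, with no overlap, and rose by 0.85 ± 0.17 (adjusted p of 0.00537). Exons of Sox2ot stood at 45.5, 43.8 and 55.2 CPM against 61.3, 60.1 and 65.4 CPM (0.37 ± 0.12, adjusted p of 0.0623). Mir99ahg, the host transcript of a miRNA cluster, holds 11 loci, and 8 of the 9 tested were above 0. They summed to 155, 120 and 127 CPM against 188, 149 and 175 CPM, a log2 ratio of 0.35, with control A above knockout B. C130023A14Rik, one of them, stood at 14.7, 14.5 and 11.2 CPM against 26.0, 15.7 and 23.4 CPM and rose by 0.68 ± 0.16 (adjusted p of 0.0229). Exons of Mir99ahg had a log2 change of 0.39 ± 0.12 (adjusted p of 0.0713).

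Among the remaining loci outside hosts with many reads, Particl, antisense to the methionine adenosyltransferase gene Mat2a, stood at 86.0, 60.4 and 70.8 CPM against 88.3, 64.9 and 73.8 CPM (0.07 ± 0.10, adjusted p of 0.857), and Mat2a was at 0.08 ± 0.11 on genotype alone. Gm37899 stood at 62.8, 53.7 and 51.3 CPM against 69.5, 61.6 and 70.1 CPM (0.26 ± 0.10, adjusted p of 0.252). Its nearest protein-coding gene on the strand, the imprinted gene Dlk1, lies 205533 bases away. Antisense loci need care, since 91 of the 117 overlap an exon of the opposite gene and 25 had more reads on that gene's strand than on their own. The median antisense locus had opposite-strand reads at 7.69% of all its reads, against 0% inside hosts.

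Lists of genes that act on nuclear and unspliced RNA were set beside the loci. Of 14 tested nuclear-retained noncoding RNAs, 12 were above 0 with a median log2 change of 0.16, and 1 passed with the block. That gene, Kcnq1ot1, an imprinted noncoding transcript, stood at 198, 126 and 129 CPM in controls A to C and at 204, 210 and 198 CPM in the knockouts (0.43 ± 0.15 on genotype alone, adjusted p of 0.0361 with the block). Neat1, the scaffold RNA of paraspeckles, stood at 6.34, 6.33 and 8.76 CPM against 9.47, 11.8 and 11.5 CPM (0.61 ± 0.20, adjusted p of 0.114). No member of 5 lists of protein factors passed in either fit. Above 0 were 15 of 22 genes of the nuclear exosome and its adaptors (median 0.05), 13 of 24 of cleavage and polyadenylation (median 0.01), 20 of 63 of splicing (median -0.02), 11 of 19 of mRNA export (median 0.01) and 18 of 30 of polymerase elongation and termination (median 0.02). Markers of microglia (9 of 10 above 0, summed level 133 to 166 CPM in controls and 157 to 199 CPM in knockouts) and of vessel cells (8 of 10, 212 to 255 and 239 to 286 CPM) were mostly above 0. Those of the oligodendrocyte lineage were mostly below 0 (1 of 9 above 0, 295 to 348 and 261 to 286 CPM). Above 0 were also 3 of 8 astrocyte markers, 3 of 8 of striatum and ventral forebrain, 2 of 6 of thalamus and 0 of 5 of red cells. Of 3 tested choroid plexus markers 1 was above 0. The choroid plexus list summed to 5.23 to 154 CPM in controls and 8.44 to 35.5 CPM in knockouts. None of these marker genes passed in either fit. The part of these cells and tissues in the TEC levels was not tested.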

How the data were processed

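Polyadenylated RNA of 6 cortical hemispheres (3 per genotype) was sequenced with the strand-specific Lexogen SENSE kit, per the labels' protocols. The authors deposited raw read counts per gene, 1 STAR table per library; STAR 2.5.4 and GRCm38 are named, per the submitters' processing notes, and the annotation release is not given in the sources used here. Column 3 of each table, with 17.5 to 19.2 times as many reads as the opposite strand, was used, and the 4 summary lines entered neither library sizes nor tests. Multi-mapping reads are not counted, so near-identical copies are undercounted.

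TEC loci, hosts and introns came from GENCODE M21, in which 52403 identifiers were found. A locus was inside a host when its whole span lay within a protein-coding gene on the same strand. Introns are those between the merged exons of all transcripts. Genes were filtered by filterByExpr (14913 genes, minimum count 10), scaled by TMM (0.979 to 1.04), and tested with the robust quasi-likelihood F-test of edgeR 4.0.16 in R 4.3.3, two-sided, with Benjamini-Hochberg adjustment over all tested genes. CPM, counts per 1000000 reads, uses TMM-scaled library sizes, and locus-to-host levels add 0.5 CPM. DESeq2 1.42.0, other scalings and left-out libraries were tried, and the fits were tested on simulated data. Members, lists and tests were chosen with earlier results of these data known.

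The letters in the sample titles were taken to pair libraries of opposite genotype. Deviations from the group means correlated at 0.417, 0.342 and 0.211 between libraries of letter A, B and C, and at -0.0310 at most between different letters. Without genes of chromosomes X and Y the values were 0.393, 0.242 and 0.182, and 0.0360 at most between different letters. Deviations from a group mean cancel over its letters, so positive same-letter values lower those between different letters by construction. The low values between different letters are therefore not an independent check of the pairing. Xist, a gene of chromosome X, stood at 918 CPM in control B and 961 CPM in knockout B. In the libraries of letters A and C it was at 0.101 to 2.95 CPM. Nothing in the labels says what a letter shares. Named loci are those called on genotype alone, the 15 inside and 8 outside hosts with the smallest p with the block, the 5 of each class with the highest mean CPM, and those at the edge of the minimum. Named hosts are theirs, the 5 with the most loci and any called host; Fam155a, Tcf12, Pclo, Gpm6a, Kctd8 and Mir99ahg totals were added after values were seen. The series' design text calls the samples biological replicates. Sequence windows were taken for the 4 named loci with the smallest p, and 1 of them is not reported here.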

Additional observations from a re-analysis of the deposited data

How the results depend on the processing

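On genotype alone, edgeR called 0 TEC loci and 0 host genes with TMM or DESeq2's size factors, without robust fitting, on the unstranded column, without chromosomes X and Y and with each library left out in turn, and so did DESeq2. It also called 0 loci at a minimum of 50 reads, with any overlap counted as inside a host and without loci over another gene's exon, where hosts were not counted. Without the filter on low counts it called 8 loci (6 inside and 2 outside hosts, 7 of the 8 shared with the block) and 1 host. With the replicate block, the paired fit, it called 17 loci (14 inside, 3 outside) and 1 host. The paired fit called 38 loci (31 and 7, 3 hosts) without pair A, of which 11 were among the 17, 6 loci (4 and 2, 5 hosts) without pair B and 5 loci (5 and 0, 1 host) without pair C. No share over all genes is given for the fits without a pair, so their counts do not show whether the loci stood out. The next 2 settings were added after seeing the data. DESeq2 with the block called 2 loci, both inside hosts, and scaling to reads outside exons with the block called 4 (3 and 1) and 32 hosts, all lower, against 6.77% of all genes. Scaling to reads outside exons alone called 0 loci and 1 host. It moved the median log2 change of the tested loci from 0.26 to 0.0195 (0.0151 with the block) and the log2 ratio of summed reads from 0.28 to 0.0423. With a library left out, that median ran from 0.20 to 0.38, highest without control A, the log2 ratio from 0.19 to 0.40, the difference from the host from 0.23 to 0.41, and the difference in reads outside exons from 2.97 to 4.96 percentage points. The causes of these shifts were not tested. The 532 loci below the filter had too few reads to be tested.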

Other observations

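Genes of some other types that lie inside a protein-coding gene on the same strand stood near the TEC loci. The 84 tested genes of the type sense_intronic inside a host had a median log2 change of 0.22, with 63 above 0, and the 46 processed pseudogenes inside a host had a median of 0.27, with 40 above 0. Processed pseudogenes elsewhere (52) had a median of 0.17 with 37 above 0. The 12 lincRNAs inside a host had a median of 0.20 with 9 above 0, and the 307 outside a host had 0.05 with 176 above 0. Over all 12957 tested protein-coding genes the median was -0.01 and 47.3% were above 0. None of the sense_intronic genes and processed pseudogenes passed with the letter as a block, while 4 of 319 lincRNAs did, all higher. Processed pseudogenes share sequence with their parent genes, so their counts are uncertain where reads map to both.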
